A study of Homo sapiens with 3 samples.

Results

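The genes described here are the protein-coding genes of the mitochondrial genome, which are transcribed inside the mitochondrion and not in the nucleus. The members were chosen by name: a probe set entered when its single symbol in the platform annotation was a mitochondrial protein-coding gene. This gave 10 of the 54675 probe sets on each array and 7 of 19775 genes, namely ND2, ND4 and ND6 of complex I, COX1, COX2 and COX3 of complex IV, and ATP6 of the ATP synthase. The set was chosen with signals and ratios of these same arrays already known, so its values are given as a description, without a test. The mitochondrial genome holds 13 protein genes in the RefSeq gene table, and the other 6 had no probe set of their own and were not analysed here. A further probe set (1 in all) carries a mitochondrial symbol together with a nuclear one and was left out.

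Human mitochondrial DNA is a small circle that is read on both strands by a dedicated RNA polymerase, POLRMT, with the help of the DNA-packaging factor TFAM and the initiation factor TFB2M. The long transcripts are cut at the tRNAs between the genes, and most of the resulting mRNAs receive a short poly(A) tail and are held stable by the LRPPRC and SLIRP proteins. Each encoded protein is a core membrane subunit of the respiratory chain or the ATP synthase and has to be assembled with many nuclear-encoded partners. In tumour cells of the colon, as elsewhere, these mRNAs are among the most abundant polyadenylated RNAs.

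RNA from a colorectal cancer cell line was hybridised to 3 Affymetrix arrays, 1 for each group. The LATS2 array came from cells infected with a virus for full-length LATS2, a Hippo pathway kinase. The LATS2N array came from cells infected with a virus for LATS2 residues 1 to 625, which leave out the C-terminal kinase domain. The control array came from cells infected with an empty-vector virus, so that viral infection is common to the 3 groups. The sample labels name the line SW620, whereas the design text of the series names SW480 and calls the expression stable, and the arrays do not settle which line was used. The promoter of the vector and the number of clones are not given in the sources used here. With 1 array per group there was no replicate, and no difference below has a replicate check.

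Each value is a MAS5 signal, a linear intensity that MAS5 computes for a probe set and that had been scaled so that the arrays share a trimmed mean of 500.1. Probe sets bind with different strength, so the signal of one is not read as more or less transcript than that of another, and brightness is used below only to group probe sets of like measurement noise. Signals under a floor of 50.5, the median of all signals, were raised to it before a log2 ratio was taken, and a difference of at least 2-fold was called. With no replicate, the spread between probe sets of the same gene was taken as a measure of noise within arrays, which does not cover noise between cultures. The difference in log2 ratio between such probe sets was divided by the square root of 2. Its robust SD thus stands for the ratio of a single probe set. Above a signal of 2000 it was 0.11 for LATS2 against control, 0.085 for LATS2N against control and 0.095 for LATS2 against LATS2N. Between 500 and 2000 it was 0.17, 0.14 and 0.15 in the same order of comparisons. The 18 spike-in probe sets, which read RNAs added during the assay, varied more, with log2 ratios of -0.31 to 0.36 for LATS2 against control and of -0.084 to 0.53 for LATS2N against control. Of the 10 mitochondrial probe sets, none lay below the highest spike-in with LATS2 and 7 did with LATS2N.

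Of 11 fixed colon epithelial markers, 8 were at or above the floor on every array. EPCAM read 18744 on the LATS2, 18756 on the LATS2N and 16608 on the control array. CDH1, the epithelial cadherin, read 2792, 3567 and 4421 in that order, and VIL1, a microvillus protein, 3948, 4666 and 5014, so both were lower with the constructs. The summed signal of the 11 markers, most of it from keratins, was 130560, 132050 and 124440 in that order of arrays. CEACAM5 and CDX1 were below the floor on the LATS2 and control arrays, and LGALS4 on the LATS2N and control arrays. Of the fibroblast, endothelial and leukocyte markers 2 were above the floor on all arrays. COL1A1, a fibroblast collagen, read 596 on the LATS2, 607 on the LATS2N and 325 on the control array, higher with both constructs like the mitochondrial transcripts, and its part in them was not tested. The summed fibroblast signal was 640, 723 and 419 in that order, with COL1A2, COL3A1 and PDGFRB below the floor on all arrays. PECAM1, an endothelial marker, read 85.0, 91.6 and 142.3. The transcript signal of LATS2 itself differed little among the arrays: its brightest probe set read 377 on the LATS2, 409 on the LATS2N and 385 on the control array. Where that probe set lies relative to the cloned sequence is not known here, so it does not check the labels.

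Transcripts of all 7 genes gave higher signals with either construct than with the empty vector. Over the 10 probe sets the median log2 ratio to control was 0.65 for LATS2, or 1.57-fold, and 0.48 for LATS2N. The 9 probe sets that reached the floor on every array lay between 1.43-fold and 2.17-fold for LATS2 and between 1.32-fold and 1.60-fold for LATS2N. All 9 read highest on the LATS2 array, next on LATS2N and lowest on control, an order found in 20.1% of the 24292 probe sets at or above the floor on all arrays. Whether more cells hold these transcripts or each cell holds more of them cannot be told apart in bulk RNA. Both construct arrays are set against the same control array, so the ratios to control share that array's error.

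**Figure D1:**
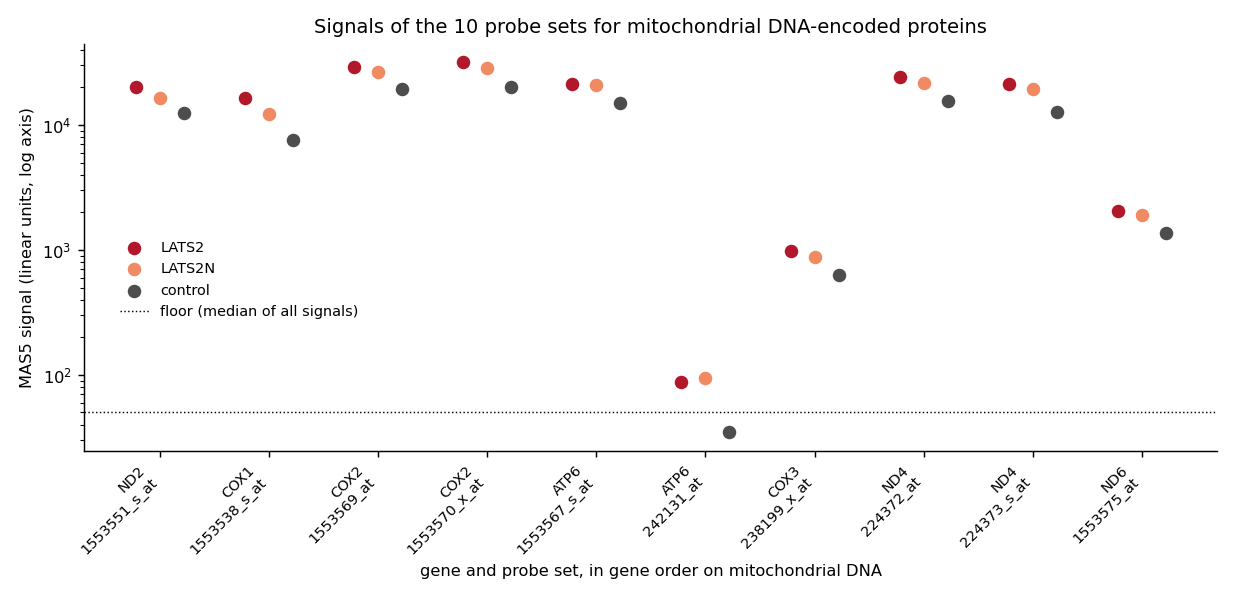
MAS5 signal (log axis) of each of the 10 probe sets, in gene order on mitochondrial DNA, on the LATS2, LATS2N and control arrays (1 point per array, no replicates); the axis names each probe set by its identifier. In 9 of the 10 probe sets the signal is highest on LATS2 and lowest on control, and the tenth, for ATP6, lies near the floor of 50.5.

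Complex I, the NADH dehydrogenase, takes 3 of the genes. ND2, a proton-pumping membrane subunit, read 20195 on the LATS2, 16408 on the LATS2N and 12410 on the control array, which is 1.63-fold and 1.32-fold higher with the constructs. ND4, a related pumping subunit, was read by 2 probe sets. The brighter one gave 24341 on the LATS2, 21516 on the LATS2N and 15440 on the control array. The ratios to control were 1.58-fold and 1.39-fold for that probe set. The other gave 21433 on the LATS2, 19269 on the LATS2N and 12647 on the control array, or 1.69-fold and 1.52-fold. The ND4 probe sets thus differed by 0.10 and 0.13 in log2 ratio. The robust SD for a single probe set at this brightness was 0.11 and 0.085.

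ND6 is the one protein gene read from the other strand of the circle, and its human mRNA is known to carry little or no poly(A) tail. It read 2068 on the LATS2, 1888 on the LATS2N and 1361 on the control array. Those signals were 1.52-fold and 1.39-fold higher than control. The log2 ratios of ND6, 0.60 and 0.47, were compared with the medians over the 10 probe sets. They lay within 0.17 (LATS2) and 0.14 (LATS2N) of them, the robust SDs given above for signals between 500 and 2000.

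Complex IV, the cytochrome c oxidase, takes its 3 catalytic core subunits from mitochondrial DNA. COX1, which holds the oxygen-reducing centre, read 16545 on the LATS2, 12230 on the LATS2N and 7623 on the control array. It was 2.17-fold higher with LATS2 and 1.60-fold higher with LATS2N, and it was the highest ratio among the probe sets of the 7 genes that reached the floor on all arrays, in both comparisons. COX2, which receives electrons from cytochrome c, was read by 2 probe sets. The first gave 29145 on the LATS2, 26359 on the LATS2N and 19464 on the control array, with log2 ratios to control of 0.58 and 0.44. The second gave 31664 on the LATS2, 28358 on the LATS2N and 20244 on the control array, with log2 ratios of 0.65 and 0.49. The COX2 probe sets thus lay within 0.063 of each other on the log2 scale for LATS2 and 0.049 for LATS2N. COX3, the third core subunit, gave 988 on the LATS2, 879 on the LATS2N and 635 on the control array, 1.56-fold and 1.39-fold higher.

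ATP6, the proton-channel subunit of the ATP synthase, had the lowest ratio for LATS2 and showed the least difference between the constructs. Its bright probe set read 21306 on the LATS2, 21041 on the LATS2N and 14915 on the control array, 1.43-fold and 1.41-fold higher than control. A dim ATP6 probe set read 88.2 on the LATS2, 94.9 on the LATS2N and 34.7 on the control array. Since the control signal was under the floor, its ratios are bounds, at least 1.75-fold for LATS2 and at least 1.88-fold for LATS2N, and the robust SD at signals of 50 to 100 was 0.42 and 0.36. Along the circle, in the order ND2, COX1, COX2, ATP6, COX3, ND4 and ND6, the log2 ratios for LATS2 were 0.70, 1.12, 0.65, 0.51, 0.64, 0.66 and 0.60 by the brightest probe set of each gene. They did not run steadily up or down with gene order.

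By the 2-fold call, COX1 alone was called higher with LATS2, 1 of the 10 probe sets, and none was called with LATS2N or in LATS2 against LATS2N. Over all probe sets that reached the floor, 2.26%, 1.77% and 1.95% were called in these 3 comparisons, in either direction. The COX1 probe set is of the type that can match more than 1 transcript (identifiers ending in x_at or s_at). So are the only probe sets of ND2 and COX3, the brighter ones of COX2 and ATP6 and the dimmer one of ND4. Without probe sets of that type no member was called with LATS2. At 1.5-fold, 8 of the 10 were higher with LATS2 and 3 with LATS2N, against 6.36% and 5.16% of all probe sets. Once probe sets under 500 on both arrays were set aside (a choice made with the data in view), 2.11% were 1.5-fold higher with LATS2 and 0.99% with LATS2N. That cut also removes the dim ATP6 probe set. Of the 9 members left, 7 were 1.5-fold higher with LATS2 and 2 with LATS2N. The members' direct comparison of LATS2 with LATS2N gave 0 of 10 at 1.5-fold, where all probe sets gave 5.37% and the brighter ones 1.55%. These shares cannot be read as support, because the members were chosen with the ratios known.

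The brightness of these transcripts sets the ratios in context, because bright probe sets vary little. Ranks among probe sets of like brightness, here and in the next paragraph, only describe the members. They cannot be read as support, because the members were chosen with the ratios known. On the control array the 6 brightest member probe sets, for ND2, ND4, COX2 and ATP6, lay between the 98.7th and the 99.4th percentile of all signals. Of the 578 probe sets with a mean signal of at least 15000, these 6 had the 6 highest ratios of LATS2 to control. The median log2 ratio of the 578 was 0.075 and their 95th percentile was 0.21, against 0.51 to 0.76 for the 6. The probe set at rank 7 was the one left out for its mixed symbols (0.37), and rank 8 was DUT, a nuclear gene for the enzyme that hydrolyses dUTP, at 0.33. For LATS2N the 6 took ranks 1 to 4, 6 and 7, with log2 ratios of 0.40 to 0.61 against a median of 0.11 over the 578. Rank 5 was COX7A2, a nuclear-encoded complex IV subunit, at 0.44. The probe set left out for its mixed symbols had 0.12 with LATS2N, near the median of 0.11, so it did not stand with the members there.

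COX1 had the highest ratio in both comparisons with control among the 668 probe sets with a mean signal from 8000 to 15000. The dimmer members stood out less. In the 6849 probe sets with a mean signal from 500 to 2000, 110 had a LATS2 ratio at least as high as that of COX3 and 133 one at least as high as that of ND6, both counted with the member itself. The 4 probe sets of COX2 and ND4 read a pair of transcripts between them, and the 7 genes come from a few shared precursors, so these ranks are not independent of each other.

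**Figure D2:**
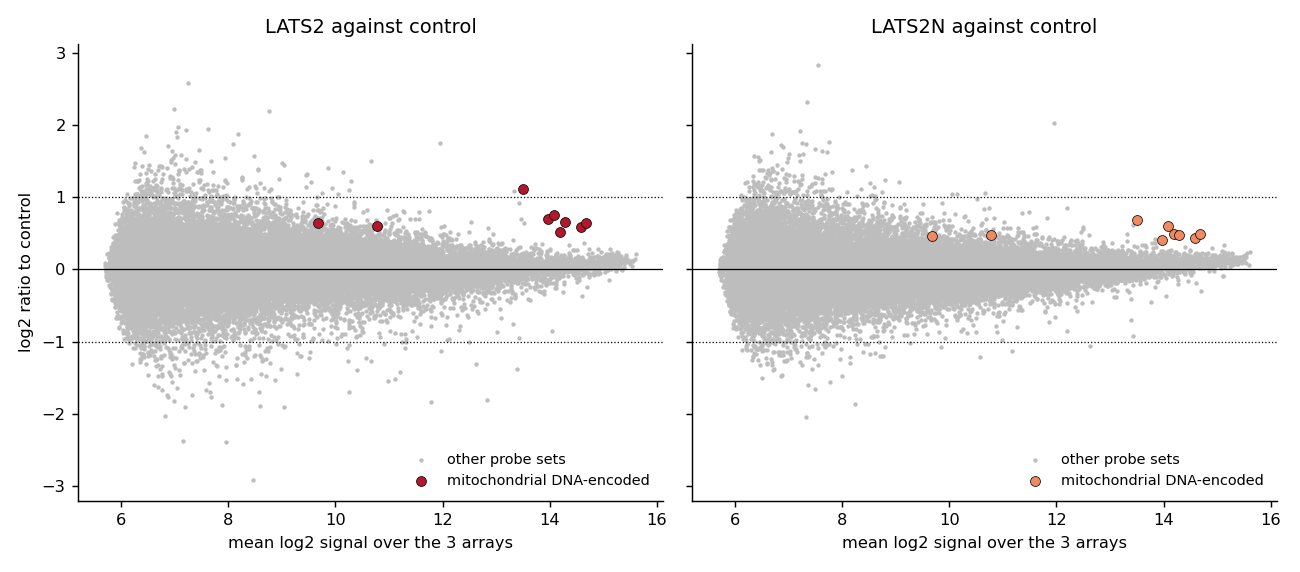
Log2 ratio to control against mean log2 signal over the 3 arrays, for LATS2 (left) and LATS2N (right), with each grey point 1 probe set at or above the floor on all arrays and coloured points the 9 members among them; dotted lines mark 2-fold. The 6 brightest members lie above the 95th percentile of 0.21 (LATS2) and 0.23 (LATS2N) of probe sets of like brightness.

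Full-length LATS2 was also set directly against LATS2N, which leaves the control array out. The median log2 ratio over the 10 probe sets was 0.16, or 1.11-fold higher with LATS2. COX1 was furthest apart at 1.35-fold (0.44), followed by ND2 at 1.23-fold (0.30). The bright ATP6 probe set was at 1.01-fold, and the dim one had a log2 ratio of -0.11. The other 6 probe sets, of COX2, COX3, ND4 and ND6, lay between 0.13 and 0.18, where the robust SD was 0.095 above a signal of 2000 and 0.15 between 500 and 2000. Here the median over the 578 brightest probe sets was -0.037.

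The nuclear genome encodes the remaining subunits of the same complexes, and by the brightest probe set of each gene their ratios to control were mostly nearer to 0. Of 79 listed nuclear-encoded subunits, 71 had a probe set of their own and 70 reached the floor. None was called in the 3 comparisons, where 1.8%, 1.51% and 1.59% of all genes were called. The log2 ratios to control had medians of 0.087 with LATS2 and 0.15 with LATS2N, over a range of -0.29 to 0.40 and of -0.14 to 0.44. Over all genes the median was 0.033 for LATS2 and 0.023 for LATS2N. For LATS2 none of the 70 reached the ratio of ATP6, the lowest of the 7 mitochondrial genes, which 7.79% of all genes reached. For LATS2N 2 of the 70, COX7A2 and NDUFA5, reached the ratio of ND2, the lowest there, which 9.78% of all genes reached. The shares over all genes take in dim genes, whose ratios vary more, whereas most of the 70 are bright. Among probe sets with a mean signal from 2000 to 8000 the 95th percentile was 0.32 with LATS2 and 0.27 with LATS2N. Few probe sets of like brightness thus reach those ratios, and the counts are not read as a trait of the nuclear subunits. Other probe sets of the nuclear genes did overlap. Of 129 nuclear-encoded probe sets that reached the floor, 6 were at or above ATP6 with LATS2, none of them with a signal above 173, the highest being one for COX4I1 at 0.83. With LATS2N 7 of the 129 reached ND2. The highest was a dim probe set for NDUFA10, a complex I subunit, at 1.52, past the 2-fold call. It read 151 on the LATS2N and 52.6 on the control array, near the floor. Also among the 7 was a bright probe set for UQCRC2, a complex III core subunit. It read 5958 on the LATS2, 6923 on the LATS2N and 4708 on the control array. Its log2 ratio with LATS2N was 0.56, above those of all the mitochondrial genes but COX1 by their brightest probe sets. A probe set for ATP5MG, of the ATP synthase, was also among the 7 at 0.46. It read 1909 on the LATS2, 2447 on the LATS2N and 1784 on the control array.

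Within complex I, the 3 mitochondrial genes had log2 ratios of 0.60 to 0.70 with LATS2, against a median of 0.11 over 33 nuclear subunit genes. The highest of the 33 was NDUFS7, an iron-sulfur subunit, which read 2177 on the LATS2, 1793 on the LATS2N and 1652 on the control array. The lowest was NDUFS1, the large iron-sulfur subunit, at 2171 on the LATS2, 2877 on the LATS2N and 2652 on the control array. With LATS2N the mitochondrial genes had 0.40 to 0.48, and the nuclear ones a median of 0.15. The highest of those, NDUFA5, an accessory subunit, read 4907 on the LATS2, 5671 on the LATS2N and 4267 on the control array.

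Within complex IV, COX1, COX2 and COX3 had log2 ratios of 0.64 to 1.12 with LATS2, against 0.033 to 0.19 over 10 nuclear subunit genes, of which COX8A was highest. With LATS2N they had 0.47 to 0.68, against 0.15 to 0.44 in the nuclear genes. COX7A2 was the highest of these, at 14756 on the LATS2, 18773 on the LATS2N and 13854 on the control array, and it was the nuclear subunit that came close to its mitochondrial partners. In the ATP synthase, ATP6 had 0.51 with LATS2 and 0.50 with LATS2N, against medians of 0.083 and 0.14 over 17 nuclear genes. Complex II, which takes no subunit from mitochondrial DNA, had medians of 0.17 and 0.095 over 3 genes. Complex III had 0.080 and 0.13 over 7 nuclear genes.

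**Figure D3:**
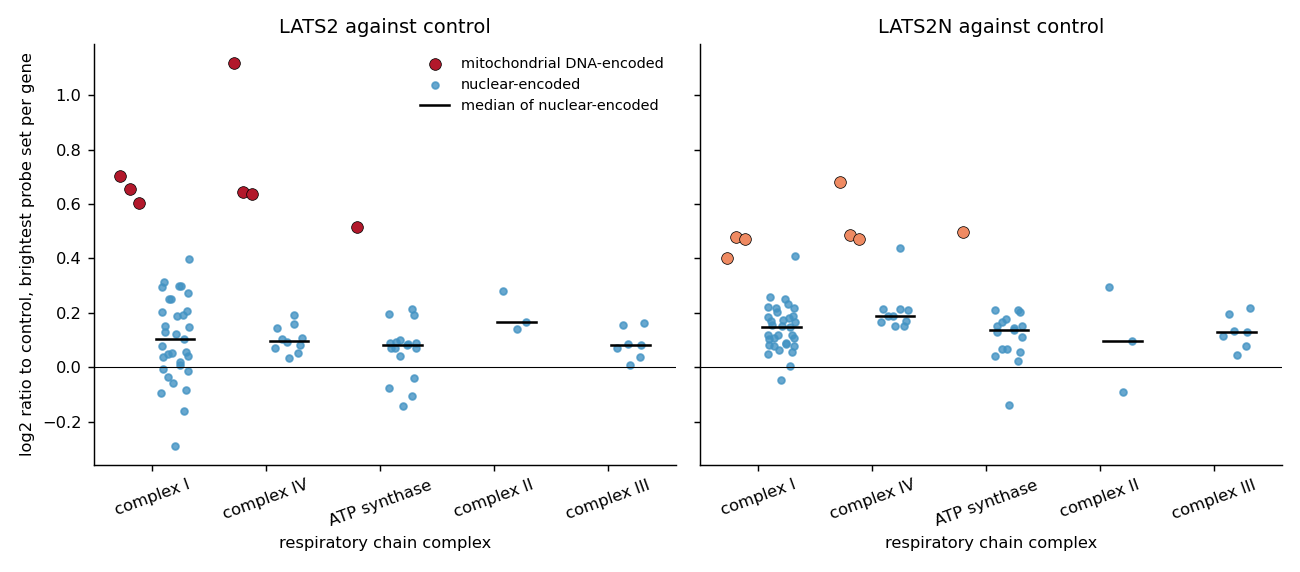
Log2 ratio to control per gene (brightest probe set) for LATS2 (left) and LATS2N (right), by complex, with mitochondrial DNA-encoded genes as large points, nuclear-encoded genes as small points and a bar at the nuclear median. The mitochondrial genes of complex I lie at 0.60 to 0.70 for LATS2, above all 33 nuclear subunit genes shown beside them.

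Lists of nuclear genes that transcribe and maintain mitochondrial DNA had medians between -0.086 and 0.086, beside 0.033 with LATS2 and 0.023 with LATS2N over all genes. By the brightest probe set of each gene, none of 10 genes of mitochondrial transcription was called with either construct. At 1.8% and 1.51% of all genes called, that says little for so short a list, and likewise for the lists below. The medians of these 10 genes were 0.051 for LATS2 and 0.066 for LATS2N. A dim TFB1M probe set was past the 2-fold call with LATS2 (1.21), at 117 against 50.2 on the control array, near the floor. The brightest TFB1M probe set had -0.031 with LATS2. POLRMT, the RNA polymerase, read 1543 on the LATS2, 1036 on the LATS2N and 1221 on the control array, above control with LATS2 and below it with LATS2N. TFB2M, the initiation factor, read 8311 on the LATS2, 9634 on the LATS2N and 8646 on the control array. TFAM had log2 ratios of -0.080 with LATS2 and 0.00 with LATS2N by its brightest probe set, at 5947 on the LATS2, 6284 on the LATS2N and 6284 on the control array. Its other probe sets differed from that one in size or direction. The next brightest TFAM probe set read 5069 on the LATS2, 5831 on the LATS2N and 7106 on the control array. That is the reverse of the order seen in the mitochondrial transcripts. Another TFAM probe set had the same reversed order, at 1656 on the LATS2, 2303 on the LATS2N and 2487 on the control array. A dim one read 227, 184 and 191 in that order of arrays. The lowest gene of the list with LATS2 was MTERF4, a factor of mitochondrial ribosome assembly, at -0.19, and the highest with LATS2N was MTERF1, a transcription terminator, at 0.36.

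Genes that process, stabilise or degrade mitochondrial RNA gave medians of -0.015 with LATS2 and 0.016 with LATS2N over 19 genes. None was called by its brightest probe set. A dimmer probe set for MTPAP, of this list, read 2664 on the LATS2, 2374 on the LATS2N and 1595 on the control array. Its log2 ratios were 0.74 and 0.57, in the order of the mitochondrial transcripts. The other MTPAP probe sets, the brightest included, were below control with both constructs. LRPPRC, which protects mitochondrial mRNAs, read 9673 on the LATS2, 11289 on the LATS2N and 10394 on the control array. SLIRP, its partner, read 26618 on the LATS2, 27403 on the LATS2N and 24966 on the control array. Both were near control, with log2 ratios of no more than 0.13 in either direction. The highest genes were FASTKD1 with LATS2 (0.28) and FASTKD2 with LATS2N (0.52), both of a family of mitochondrial RNA-binding proteins. ANGEL2, an RNA phosphatase, was lowest with both, at -0.28 and -0.40.

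Among 16 genes of mitochondrial DNA replication and the nucleoid, the medians were 0.086 with LATS2 and -0.086 with LATS2N, and 1 gene was called. This was TK2, the mitochondrial thymidine kinase that supplies nucleotides for mitochondrial DNA, at 128 on the LATS2, 171 on the LATS2N and 273 on the control array, 2.14-fold lower with LATS2. The other TK2 probe sets did not show it, since one read 165 on the LATS2, 160 on the LATS2N and 139 on the control array. With the median over probe sets, or with a floor at the 75th percentile, no gene of the list was called. The highest genes of this list were POLG, the DNA polymerase, with LATS2 (0.17) and DNA2, a nuclease and helicase, with LATS2N (0.34).

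Regulators of mitochondrial biogenesis had medians of 0.021 and -0.034 over 8 genes, with none called. The highest was PPARGC1B, a coactivator of respiratory genes, at 1386 on the LATS2, 1111 on the LATS2N and 985 on the control array, 1.41-fold and 1.13-fold. Its dimmer probe sets did not all go the same way. PPRC1, a related coactivator, was lowest with LATS2N at -0.32, and GABPA, a transcription factor for respiratory genes, was lowest with LATS2 at -0.15. PPARGC1A was near the floor on all arrays, at 59.8, 56.8 and 54.6 on the LATS2, LATS2N and control arrays. General markers of mitochondrial content, such as citrate synthase, import receptors, porins and matrix chaperones, had medians of 0.015 with LATS2 and 0.024 with LATS2N over 11 genes, with none called. They ranged from -0.19 for TOMM20, an import receptor, to 0.18 for VDAC3, a porin, with LATS2. With LATS2N they ranged from -0.25 for TOMM40, the import channel, to 0.21 for TOMM70, an import receptor.

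**Figure D4:**
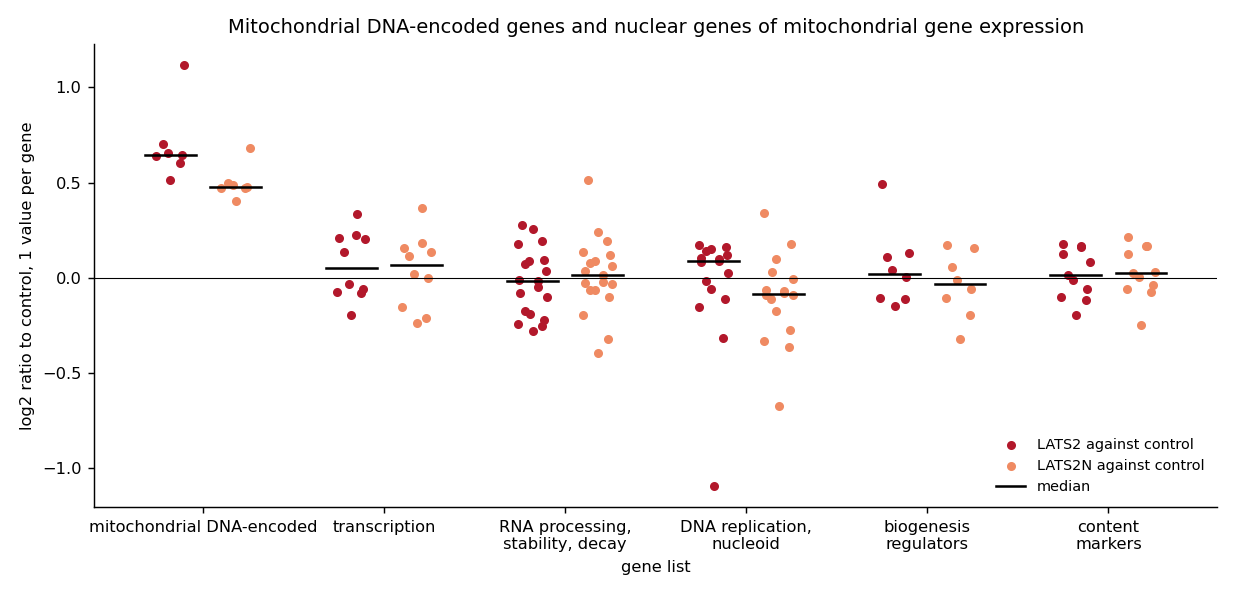
Log2 ratio to control per gene for the 7 mitochondrial DNA-encoded genes and 5 lists of nuclear genes, LATS2 left and LATS2N right in each pair, with a bar at the median. The 7 genes have medians of 0.65 and 0.48, whereas the medians of the 5 lists lie between -0.086 and 0.086.

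Ribosomal RNA signals differed between the arrays as well. The 3 probe sets for 18S ribosomal RNA, the RNA of the small cytosolic ribosomal subunit, had a median log2 ratio of -1.31 with LATS2 and -0.70 with LATS2N. The brightest read 12415 on the LATS2, 17421 on the LATS2N and 22536 on the control array, so the order of the arrays was the reverse of that of the mitochondrial transcripts. The 2 probe sets for 28S ribosomal RNA that reached the floor had a median of -0.75 with LATS2 and -0.60 with LATS2N. The spike-ins, of bacterial and phage origin, had medians of 0.030 and 0.11, over the ranges given above. The ratio of the GAPDH probe sets at its 3-prime and 5-prime ends was 0.94 on the LATS2, 0.96 on the LATS2N and 1.02 on the control array. For ACTB it was 1.74, 1.85 and 1.68 in that order, lowest on control. The part of these in the mitochondrial result was not tested.

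The scaling chosen for the arrays moved the size of the difference and not its direction. With each array scaled to the spike-ins, the median over the 10 probe sets was 0.62 with LATS2 and 0.37 with LATS2N. Scaled to the nuclear-encoded respiratory chain genes, it was 0.56 and 0.34. The gap between mitochondrial and nuclear medians was 0.56 with LATS2 and 0.33 with LATS2N. A scaling by 1 factor per array cannot change that gap. Among the settings that can, quantile normalisation gave 0.57 with LATS2 and centring by intensity gave 0.37 with LATS2N, the highest values of each. The lowest were 0.54 and 0.33, both without x_at and s_at probe sets. Over the settings tried, all 102 single probe set ratios were above 0 for LATS2, and likewise all 102 for LATS2N. They repeat the same 10 probe sets on the same arrays and are not separate checks.

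**Figure D5:**
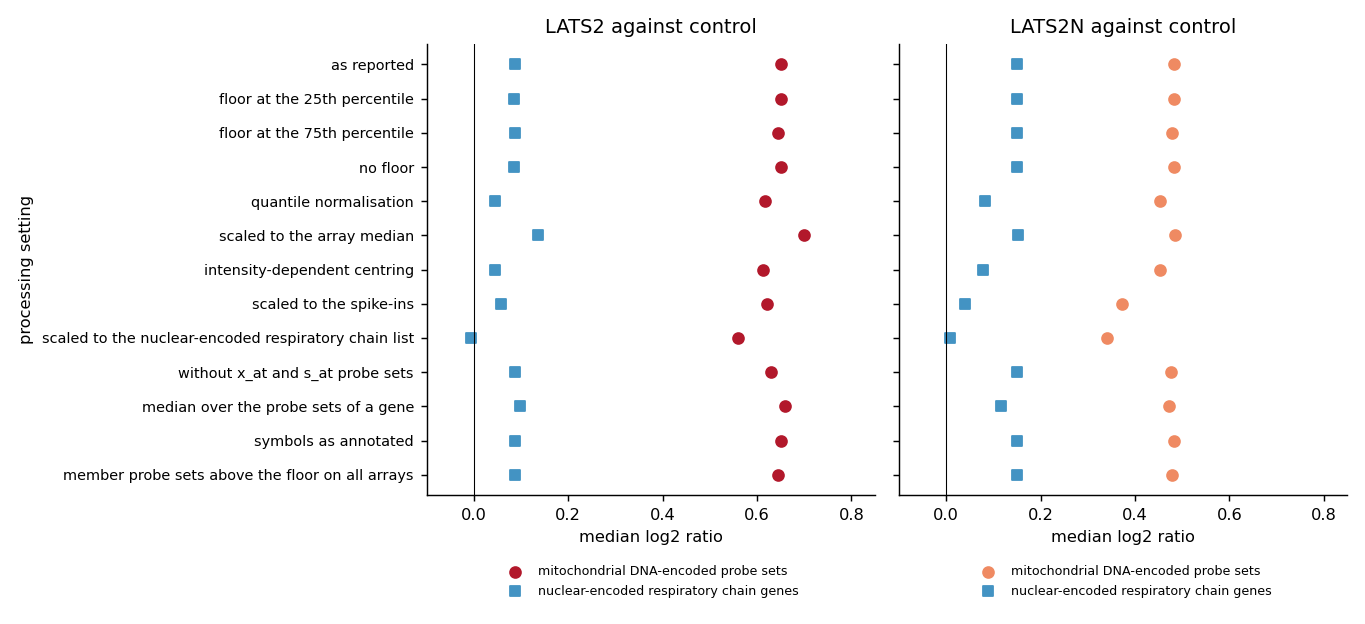
Median log2 ratio to control over the mitochondrial DNA-encoded probe sets (circles) and the nuclear-encoded respiratory chain genes (squares) under each processing setting, for LATS2 (left) and LATS2N (right). The circles lie between 0.56 and 0.70 for LATS2 and between 0.34 and 0.48 for LATS2N, to the right of the squares in all 13 settings. A scaling by 1 factor per array moves circle and square alike.

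The nuclear genes with the most similar pattern were sought among 5802 genes at least as bright as the dimmest of the 7, a mean signal of 834. Likeness was the distance between the pair of log2 ratios to control and the median pair of the 7 genes, so it rests on 3 arrays. The nearest were VCF1, G6PC3, CCDC43, ZDHHC4 and CALCOCO2, at distances of 0.025 to 0.058. G6PC3, a glucose-6-phosphatase, read 2579 on the LATS2, 2251 on the LATS2N and 1649 on the control array, and CALCOCO2, an autophagy receptor, read 1358, 1270 and 903 in that order. All 5 read between 500 and 2000 on the control array, their dimmest. There the robust SD is 0.17 for LATS2 and 0.14 for LATS2N, above these distances.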

How the data were processed

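Expression was measured on 3 Affymetrix arrays, 1 each for LATS2, LATS2N and control. The deposited values are linear signal intensities, 1 per probe set. The submitters' processing notes name MAS5, and its version and settings are not given in the sources used here. From the values, the mean without the lowest and highest 2% was 500.1 on each array. Per the labels' protocols, 6 µg of total RNA was labelled. Detection calls were not analysed here.

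Of 54675 probe sets, 62 are the manufacturer's controls and 41091 others have exactly 1 symbol. Gene IDs brought symbols up to the RefSeq table of assembly GRCh38.p14 (41037 probe sets matched). The brightest probe set by mean log2 signal stood for each of the 19775 genes. Log2 ratios were taken after a floor of 50.5, and calls by size at 2-fold. With 1 array per group there is no test, no p-value and no SD between samples, and the number of arrays limits the precision. The members and gene lists were chosen with earlier results of these data known. Named were each member probe set, list genes past the call, the highest and lowest list genes and the 5 genes of most similar pattern. POLRMT, TFB2M, TFAM, LRPPRC, SLIRP and PPARGC1A were added for their role. MTPAP, TFB1M, UQCRC2, ATP5MG, NDUFA10 and COX4I1 were named for probe sets other than the brightest of the gene. No probe set annotated to the mitochondrial ribosomal RNAs or to nuclear copies of mitochondrial genes was found, and these were not analysed here. Whether the member probe sets also bind transcripts of nuclear copies could not be checked, because probe sequences were not available. The ratios were tested on simulated data with known shifts. Alternatives were other floors, scalings, calls and gene summaries. Python 3.11.15, numpy 2.4.6, pandas 2.3.3 and statsmodels 0.14.6 were used.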

Additional observations from a re-analysis of the deposited data

How the results depend on the processing

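Of 189 values of the main results under other settings, 178 kept their size within the spread between probe sets, or their count within 1.5 times, and 11 moved. In 4 of the 189 a small median of the nuclear-encoded respiratory chain changed sign. Between LATS2 and LATS2N it was -0.046, and 0.00080, 0.033 and 0.0036 when scaled to the array median, the spike-ins and that chain. For LATS2 against control it was 0.087, and -0.0052 when scaled to that chain. The medians of the mitochondrial probe sets kept their sign in all settings run. The 10 mitochondrial DNA-encoded probe sets called higher numbered 2 with LATS2 and 1 with LATS2N, in place of 1 and 0, when the floor was lowered to the 25th percentile or removed, where the dim ATP6 probe set passes. At 1.5-fold they numbered 8 and 3. Without x_at and s_at probe sets, which leaves out COX1, the count with LATS2 was 0; the nuclear list was kept as reported in that setting and in the one limited to members above the floor, which was added after seeing the data. Scaled to the spike-ins, the median with LATS2N was 0.37 for the mitochondrial probe sets and 0.041 for the nuclear-encoded respiratory chain, and scaled to that chain 0.34 and 0.0080. That last scaling shifted the median of all probe sets by -0.13 for LATS2N. Calls over all genes, 238 with LATS2, 200 with LATS2N and 210 between the constructs, depend on the floor, with 1763, 1650 and 1723 at the 25th percentile, 28, 1 and 20 at the 75th, and 3711, 3498 and 3653 with none. At 1.5-fold they were 1354, 1077 and 1231, and with the median over probe sets 168, 133 and 135. No paired analysis was possible because each group has 1 array, and leaving out a replicate was not possible for the same reason. Signals near the floor limit the dim ATP6 probe set.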
